A study of Mus musculus with 8 samples.

Results

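Motile cilia are the beating cilia of multiciliated epithelia. In the brain they line the ventricles on ependymal cells, where their beat moves cerebrospinal fluid, and the epithelium of the choroid plexus, which secretes that fluid, also carries cilia and expresses Foxj1. A motile cilium is built on a ring of microtubule doublets with dynein motors, a central pair and radial spokes between them, under a transcriptional programme led by FOXJ1 and the RFX factors. The thalamus borders the third ventricle, so a dissected thalamic block can hold ependyma and, at its roof, choroid plexus.

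The 5 genes described here are Foxj1, Ak7, Rsph1, Dynlrb2 and Tmem212, each followed through the probe set of that symbol with the highest mean level. They are 5 of 19938 genes with a probe set of 1 symbol. Each gene had 1 such probe set, and all 5 passed the brightness filter, which kept probe sets with a mean log2 level above 5.63 over the 8 arrays. The genes were chosen by their levels in earlier results of these data, among them differences between the injected groups, so values in those comparisons are a description with no test.

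Expression was measured in thalamic tissue of adult male C57BL/6 mice, with 1 array per mouse and 2 mice in each of 4 groups. Non-acupoint mice received MPTP, a toxin taken up by dopaminergic neurons that is used to model parkinsonism, and needles in both hips. Acupoint mice received MPTP and needles at GB34 and LR3, points of the lower leg and foot. Both were needled in 14 sessions 48 hr apart. MPTP mice received the toxin without needling, and control mice received saline. The MPTP dose was 20 mg/kg every 24 hr for 4 weeks in all 3 injected groups, and the mice were 6 weeks old when they entered the study. No needled group without MPTP and no handled control is among these arrays, so an effect of needling alone cannot be read from them.

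Limma's moderated test, on both sides, with Benjamini-Hochberg adjustment covered 15791 named probe sets at a threshold of 0.05 on the adjusted p. In the array of mouse 1 of the MPTP group, and in that of mouse 1 of the non-acupoint group, levels across all probe sets were closest to each other (r = 0.987). Against the remaining 6 arrays, from which they stood apart, their r was 0.952 to 0.969, and between pairs of those 6 it was 0.984 to 0.991. For the 5 genes and the cilia lists, values over those 6 arrays are given beside the comparisons these arrays enter, and for other genes where the direction turns. Precision is limited by having 2 arrays a group.

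The 5 genes were lowest on average in non-acupoint mice, in every case, and highest in acupoint mice in 4 of 5 cases. The exception was Dynlrb2, whose highest group mean was that of MPTP mice. This order is fragile in 2 genes. Foxj1 had nearly level means in non-acupoint (6.22) and MPTP mice (6.24). Over the 6 arrays, Rsph1 in non-acupoint mice was 0.0848 above controls, and its acupoint minus MPTP difference was -0.08. Averaged as deviations from each gene's own 8-array mean, the 5 genes stood at -0.40 and -0.40 (log2) in non-acupoint mice, 0.18 and 0.68 in acupoint mice, 0.25 and -0.05 in MPTP mice, and -0.14 and -0.12 in control mice. Acupoint mouse 2 was the highest array, and the 2 non-acupoint arrays were the lowest. In a block of tissue, fewer ciliated cells and less RNA per ciliated cell cannot be told apart.

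**Figure D1:**
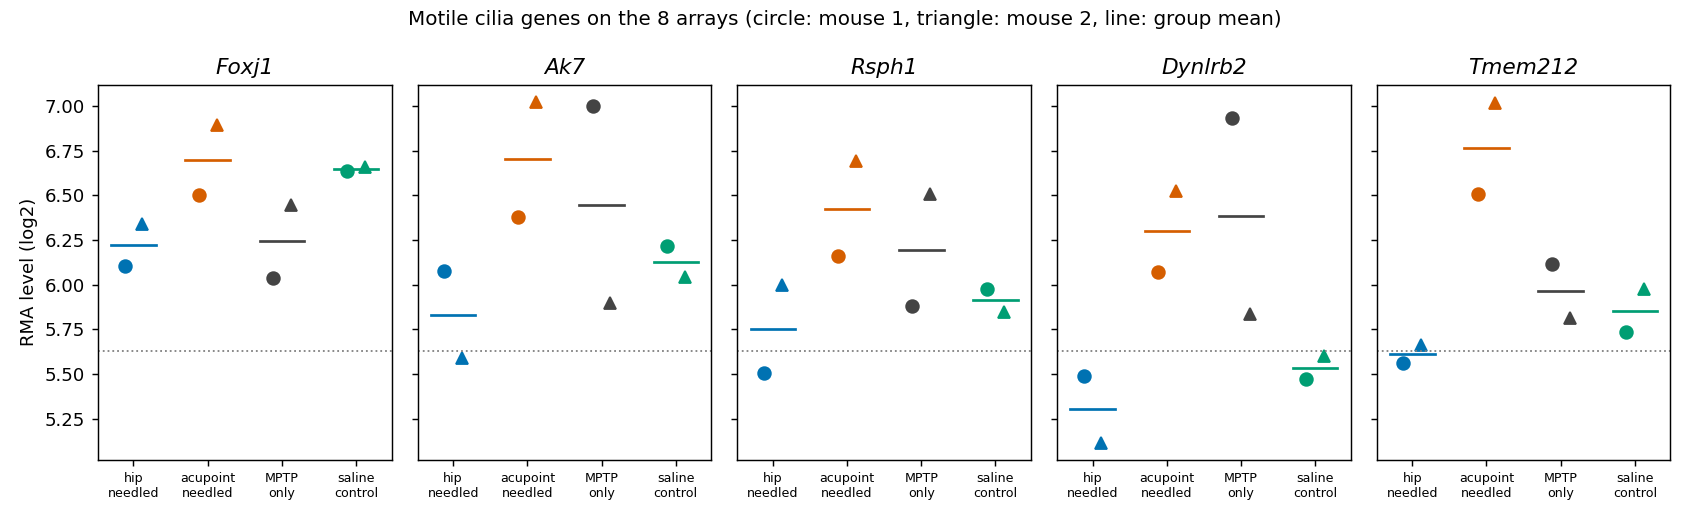
RMA level (log2, y axis) of the 5 motile cilia genes on each array, by group (x axis; hip marks the non-acupoint mice); circles are mouse 1, triangles mouse 2, and lines the group means. The dotted line is the brightness filter at 5.63. Non-acupoint means are the lowest in all 5 panels, and the 2 MPTP mice lie far apart in Ak7 and Dynlrb2.

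Foxj1 encodes the forkhead factor that turns on the motile cilia programme. Its log2 level was 6.10 and 6.34 in non-acupoint mice, 6.50 and 6.89 in acupoint mice, 6.04 and 6.45 in MPTP mice, and 6.64 and 6.66 in control mice. Acupoint and control mice were the higher pair of groups, with means of 6.70 ± 0.28 and 6.65 ± 0.01 (SD, n = 2) that overlapped in their arrays. MPTP mice (6.24 ± 0.29) lay wholly below controls, and non-acupoint mice (6.22 ± 0.17) overlapped MPTP mice. Foxj1 was the only one of the 5 genes that was lower in MPTP mice than in controls.

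Ak7, an adenylate kinase of motile cilia, stood at 6.08 and 5.59 in non-acupoint mice, 6.38 and 7.02 in acupoint mice, 6.997 and 5.90 in MPTP mice, and 6.22 and 6.04 in control mice. The 2 MPTP mice spanned most of the range of the gene. In order of their means, acupoint (6.70 ± 0.45), MPTP (6.45 ± 0.78), control (6.13 ± 0.12) and non-acupoint mice (5.83 ± 0.34) each overlapped the next.

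Rsph1 encodes a protein of the radial spoke head, which relays signals from the central pair to the dyneins. It was at 5.51 and 6.00 in non-acupoint mice, 6.16 and 6.69 in acupoint mice, 5.88 and 6.51 in MPTP mice, and 5.97 and 5.85 in control mice. Every group overlapped its neighbour in the order acupoint (6.42 ± 0.38), MPTP (6.196 ± 0.44), control (5.91 ± 0.09) and non-acupoint (5.75 ± 0.35). Unlike Ak7, it was lower in MPTP mouse 1 than in MPTP mouse 2.

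Dynlrb2 encodes a roadblock-type dynein light chain that is abundant in ciliated tissues. Levels were 5.49 and 5.12 in non-acupoint mice, 6.07 and 6.53 in acupoint mice, 6.93 and 5.83 in MPTP mice, and 5.47 and 5.60 in control mice. MPTP (6.38 ± 0.78) and acupoint mice (6.30 ± 0.32) overlapped, and both lay wholly above control (5.54 ± 0.09) and non-acupoint mice (5.30 ± 0.26), which overlapped each other. The means of the last 2 groups lie under the level of the brightness filter, so the gene was tested through its acupoint and MPTP levels and the sizes of its differences are uncertain.

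Tmem212 encodes a transmembrane protein and is used as an ependymal marker. It was at 5.56 and 5.66 in non-acupoint mice, 6.51 and 7.02 in acupoint mice, 6.11 and 5.81 in MPTP mice, and 5.73 and 5.97 in control mice. Acupoint mice (6.76 ± 0.36) lay above all 6 other arrays. MPTP (5.96 ± 0.21) and control mice (5.85 ± 0.17) overlapped, and non-acupoint mice (5.61 ± 0.07), also under the filter level, lay below both.

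Across the 8 arrays the closest pair of genes was Ak7 and Dynlrb2 (r = 0.92), and the least alike were Dynlrb2 and Foxj1 (r = -0.04). Over the 6 arrays left without the pair that stood apart, the r of this least alike pair was 0.69 and that of Tmem212 with Dynlrb2 was 0.92. These correlations describe arrays that share groups and normalization. Over the 6 arrays the 10 pairs ran from 0.38, for Foxj1 with Rsph1, to 0.92. On MPTP mouse 1 Ak7 and Dynlrb2 were high and Foxj1 was low.

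Since RFX and forkhead factors act on promoters of motile cilia genes, the 250 bases before the RefSeq start (GRCm38.p6) are shown for the 3 members in the promoter table. Capitals mark matches, on either strand, to the short RFX motif GTTGCC or to the forkhead core TGTTTAC. The palindromic RFX X-box, whose arms can hold the short motif, was searched as well. Dynlrb2 lies at chr8:116504765-116505014 on the plus strand, Ak7 at chr12:105705732-105705981 on the plus strand, and Tmem212 at chr3:27896369-27896618 on the minus strand, each printed 5′ to 3′ along the gene.
Dynlrb2: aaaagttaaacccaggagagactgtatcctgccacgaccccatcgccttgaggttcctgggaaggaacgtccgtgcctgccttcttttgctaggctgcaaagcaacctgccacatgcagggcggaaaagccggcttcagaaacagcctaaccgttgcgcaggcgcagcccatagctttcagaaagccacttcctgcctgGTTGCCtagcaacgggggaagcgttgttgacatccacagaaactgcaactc
Ak7: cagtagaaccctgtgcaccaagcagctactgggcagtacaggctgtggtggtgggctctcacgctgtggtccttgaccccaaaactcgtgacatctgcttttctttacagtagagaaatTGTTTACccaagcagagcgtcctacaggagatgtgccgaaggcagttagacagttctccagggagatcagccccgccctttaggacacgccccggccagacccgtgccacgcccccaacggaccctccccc
Tmem212: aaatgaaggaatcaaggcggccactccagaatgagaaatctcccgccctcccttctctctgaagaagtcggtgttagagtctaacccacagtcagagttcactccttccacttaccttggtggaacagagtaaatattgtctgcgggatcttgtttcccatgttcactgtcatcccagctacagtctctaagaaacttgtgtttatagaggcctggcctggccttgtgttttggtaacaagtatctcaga

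Dynlrb2 held the short RFX motif, 51 bases before the start, Ak7 held the forkhead core, 131 bases before it, and Tmem212 held neither. None of the 3 held the X-box in the single spacing of its arms that was searched, and other spacings were not searched. In Dynlrb2 the short RFX motif was followed by tagcaac, which resembles a second X-box arm at a closer spacing. The search did not cover that form. Among all 32851 promoter windows, 10.4% held the short RFX motif, 3.17% the forkhead core and 0.374% the X-box. Counted by gene, the short RFX motif was present for 31 of 84 other motile cilia genes of the lists (36.9%), against 11.8% of all 27025 genes. The X-box was present for 3 of these 84, against 0.444% of all genes, and the forkhead core for 2 of 84, against 3.54%. These are matches of letters only. They do not show binding, and promoters differ in base composition, which was not adjusted for.

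The first question was how needling at the hips changed these genes in MPTP-treated mice. All 5 were lower in non-acupoint than in MPTP mice, by a median log2 difference of -0.44, and in Dynlrb2 and Tmem212 the groups did not overlap. Of all probe sets tested, 6.74% were lower with no overlap in this comparison and 0.0443% passed the threshold. Dynlrb2 differed by -1.08 ± 0.37 (SE), Ak7 by -0.61 ± 0.40, Rsph1 by -0.44 ± 0.29, Tmem212 by -0.35 ± 0.21 and Foxj1 by -0.02 ± 0.21. Without the 2 arrays that stood apart, which leaves 1 array in each group, these differences were -0.72, -0.31, -0.51, -0.15 and -0.11, and all 5 were still below 0. The difference of Foxj1 was 0.18 when MPTP mouse 2 was left out, and 0.0977 when non-acupoint mouse 1 was left out, so its direction rests on single arrays.

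By group means, most other motile cilia genes of the lists had the same direction with smaller sizes, but their pattern over single arrays differed. Of 103 other genes, 98 had a probe set and 55 passed the filter. Among these 55, 50 were lower in non-acupoint mice and 5 higher, with a median of -0.18, where the median of all 13524 genes tested was 0.00. In 13 of 55 (23.6%) both non-acupoint mice lay below both MPTP mice. None of the 55 passed the threshold by limma, and 5 had an unadjusted p under 0.05, as had 1.56% of all probe sets. Drc7, a subunit of the nexin link between doublets, had the largest difference (-1.82, adjusted p = 0.193, limma), with 5.21 and 5.07 in non-acupoint mice, against 7.05 and 6.87 in MPTP mice. In the nexin, spoke and central pair list, 14 of 16 genes were lower (median -0.26). Among them were the spoke gene Cfap206 (-0.91), whose groups did not overlap, and the central pair gene Cfap54 (-0.71), whose groups overlapped. Cfap206 passed the filter only through its MPTP levels (6.88 and 5.62), so the size of its difference is uncertain. Of the axonemal dynein genes 18 of 21 were lower (median -0.24), with Odad4 of the dynein docking complex, listed on the array as Ttc25, at -0.56, the light chain gene Dnali1 at -0.55 and the heavy chain gene Dnah9 at -0.53. In the list of doublet and other cilia genes, all 12 of 12 tested were lower (median -0.35), with Cfap52 at -0.73, Ccdc153 at -0.59, Ccdc113 at -0.49 and Efhc2 at -0.44. The regulators were close to 0 (6 of 6 lower, median -0.09), with Trp73 at -0.16 and Rfx2 and Foxn4 at -0.12 each. With the 6 arrays, 42 of 55 were lower, with a median of -0.26. The mean deviation of the 55 genes was -0.02 and -0.27 in non-acupoint mice, 0.32 and -0.03 in MPTP mice, and -0.07 and -0.06 in control mice. Unlike in the 5 genes, non-acupoint mouse 1 was above both control mice, and the highest array was MPTP mouse 1.

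Genes of intraflagellar transport, which builds primary and motile cilia alike and is active in neurons, did not share this direction. Only 9 of 25 were lower in non-acupoint mice, their median was 0.06, and 0 passed by limma (0 at an unadjusted p under 0.05 too). The largest differences were in Dync2h1 (0.20), the motor of retrograde transport, Traf3ip1 (0.20), Ift56 (0.19, listed as Ttc26) and Ift88 (-0.19). Tanycytes, the unciliated or sparsely ciliated cells of the ventricle floor, gave no common direction either, with 3 of 7 marker genes lower and a median of 0.16. The largest were Lhx2 (-0.36), Scn7a (0.35), the intermediate filament gene Nes (0.21) and Adm (0.18), of which Lhx2 (0.01) and Adm (-0.02) were on the other side of 0 with the 6 arrays. Ependymal genes outside the axoneme were lower in 6 of 7 cases with a median of -0.12. Among them Ecrg4, which choroid plexus epithelium also expresses, was far from the others at -1.996, followed by Vim (-0.34), Hspa2 (-0.17) and Rarres2 (-0.12). With the 6 arrays the list turned, with 2 of 7 lower and a median of 0.06, and Vim (0.03) and Hspa2 (0.26) were above 0 while Ecrg4 stood at -2.47.

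**Figure D2:**
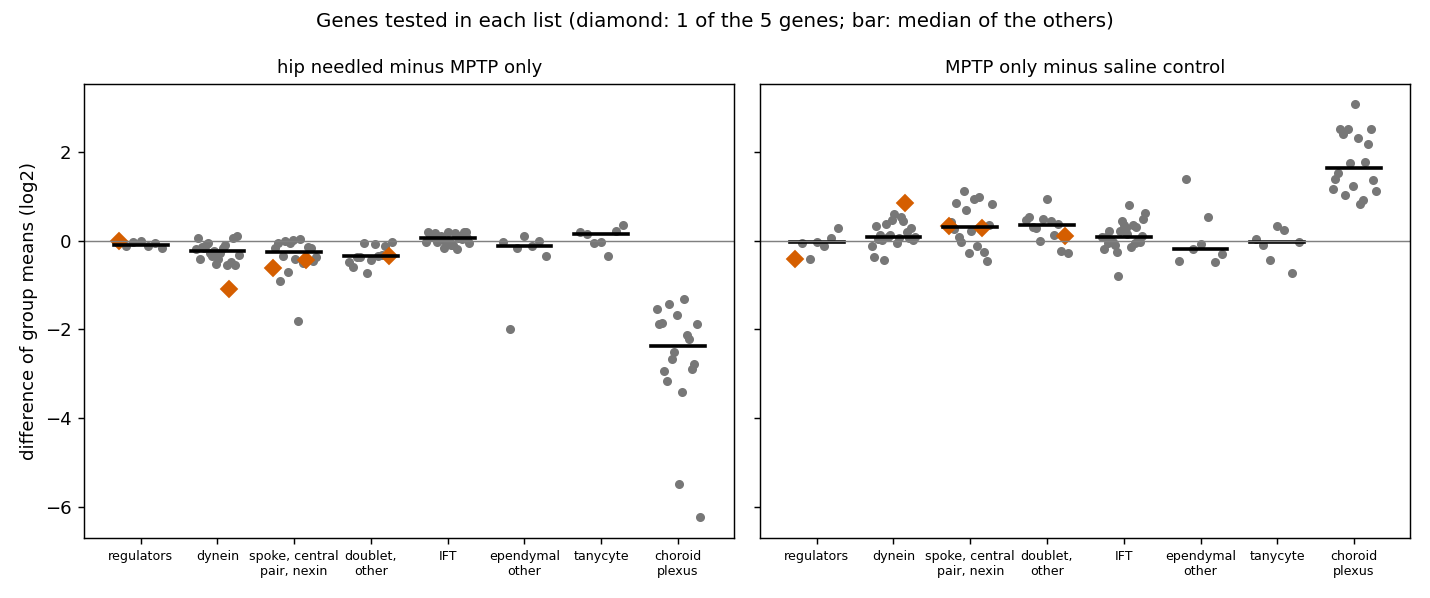
Difference of group means (log2, y axis) of each tested gene by list (x axis), for non-acupoint minus MPTP mice (left) and MPTP minus control mice (right). Diamonds are the 5 genes, grey points the other genes and bars the median of the others; motile cilia lists lie mostly below 0 on the left and choroid plexus genes lie far below 0 there and above 0 on the right.

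Choroid plexus genes moved with this comparison. All 18 of the 18 tested (of 22 listed, 19 with a probe set) were lower in non-acupoint than in MPTP mice, with a median of -2.37, and 4 passed the threshold. Their mean log2 level was 5.66 and 5.67 in non-acupoint mice, 7.70 and 8.24 in acupoint mice, 8.39 and 8.27 in MPTP mice, and 6.55 and 6.61 in control mice. Of the defining markers, Ttr stood at 5.72 and 8.39 in non-acupoint mice, against 12.91 and 13.65 in MPTP mice, and Otx2 at 6.61 and 6.91, against 8.05 and 8.10. Kcnj13 was at 4.91 and 5.30, against 11.07 and 10.13, and Folr1 at 5.91 and 5.92, against 8.29 and 8.58. Each of these 4 markers was lower in both non-acupoint mice than in both MPTP mice, and their part in the cilia result was not tested. In acupoint against MPTP mice, 16 of 18 choroid plexus genes were lower (median -0.33). Of the 5 cilia genes 4 were higher there, with directions that turned in Ak7 and Rsph1 when single arrays were left out. Of the 55 other motile cilia genes 32 were lower (median -0.03). Habenula genes, which mark the nucleus beside the roof of the third ventricle, had mean deviations over 9 genes of -0.37 and -0.37 in non-acupoint mice, 0.17 and 0.73 in acupoint mice, 0.53 and -0.37 in MPTP mice, and -0.16 and -0.16 in control mice. Meningeal genes were lower in non-acupoint than in MPTP mice in 9 of 9 cases (median -0.35), 1 of them past the threshold. The part of these lists was not tested either.

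**Figure D3:**
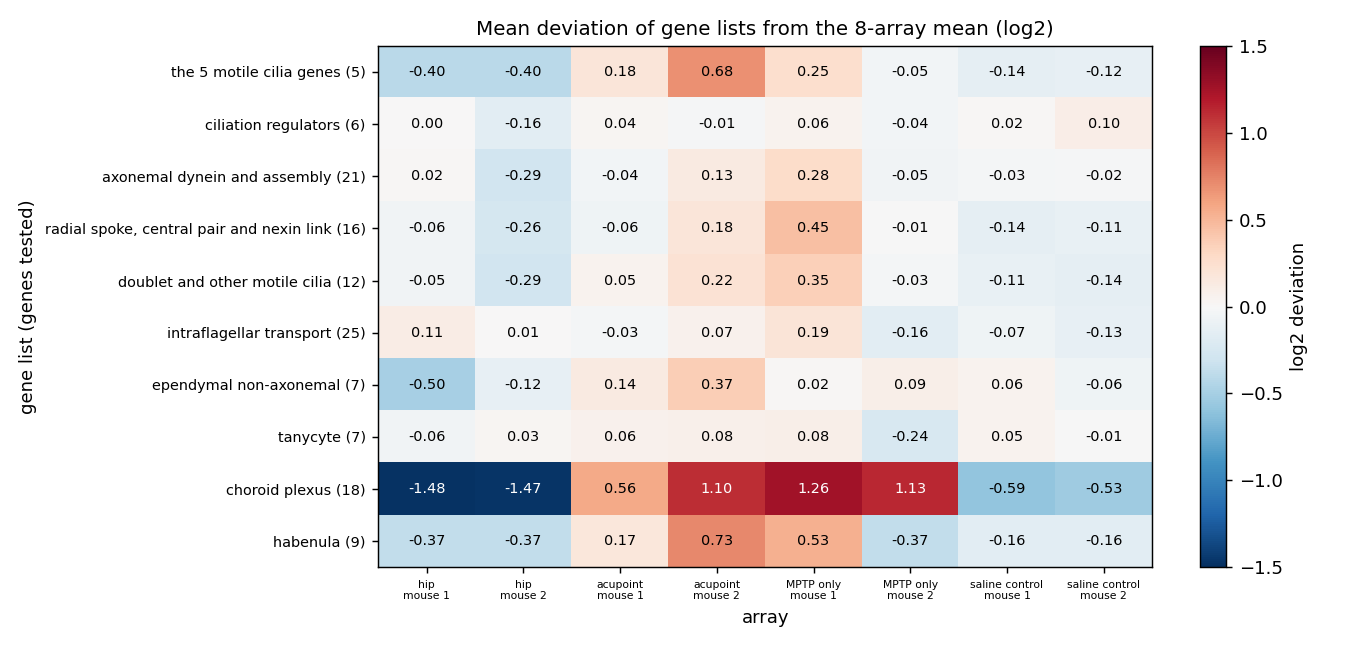
Mean deviation of each gene list from its 8-array mean (log2, colour and printed value) on each array (columns); rows are lists, with the number of genes tested, and the 5 genes are left out of the cilia lists; hip marks the non-acupoint mice. The 5 genes are lowest in both non-acupoint mice (-0.40 and -0.40) and highest in acupoint mouse 2 (0.68), and the choroid plexus row runs from -1.48 to 1.26.

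The next comparison set acupoint mice against mice given the toxin without needles. Tmem212 was higher in acupoint mice by 0.80 ± 0.21 (SE), 1.74-fold, and Foxj1 by 0.46 ± 0.21. In both genes the groups did not overlap, as in 14.5% of probe sets that were higher in this comparison, where 0 passed the threshold (216, or 1.37%, at an unadjusted p under 0.05, limma). Ak7 (0.25 ± 0.40), Rsph1 (0.23 ± 0.29) and Dynlrb2 (-0.09 ± 0.37) overlapped between groups. With the 6 arrays, Tmem212 stood 0.95 above MPTP mouse 2, Ak7 0.80 and Dynlrb2 0.46, while Rsph1 was -0.08, and without MPTP mouse 1 alone the directions of Dynlrb2 and Rsph1 turned in the same way. Dynlrb2 was also at 0.14 without acupoint mouse 1, and Rsph1 at -0.0378 without acupoint mouse 2. Ak7 was at -0.30 without MPTP mouse 2 and at -0.0681 without acupoint mouse 2. The directions of these 3 genes therefore rest on single arrays. The other cilia genes showed no common direction, with 23 of 55 higher, a median of -0.03, and 0 past the threshold or at an unadjusted p under 0.05. With the 6 arrays 36 of 55 were higher, with a median of 0.09.

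Of the 6 comparisons, the median difference of the 5 genes was widest between the sites of needling (0.87). All 5 were higher in acupoint than in non-acupoint mice, and in all 5 the 2 groups did not overlap. Of all probe sets, 13.8% were higher with no overlap in this comparison and 0 passed the threshold (299, or 1.89%, at an unadjusted p under 0.05, limma). Tmem212 differed by 1.15 ± 0.21 (SE), 2.22-fold, Dynlrb2 by 1.00 ± 0.37, Ak7 by 0.87 ± 0.40, Rsph1 by 0.67 ± 0.29 and Foxj1 by 0.48 ± 0.21. With the 6 arrays the same differences were 1.10, 1.18, 1.11, 0.43 and 0.36. Of the other motile cilia genes 45 of 55 were higher, with a median of 0.17, and in 15 of 55 (27.3%) the acupoint mice lay wholly above the non-acupoint mice. None passed, and 5 had an unadjusted p under 0.05. Choroid plexus genes were higher in all 18 tested (median 1.92) and habenula genes in all 9 tested (median 0.76).

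**Figure D4:**
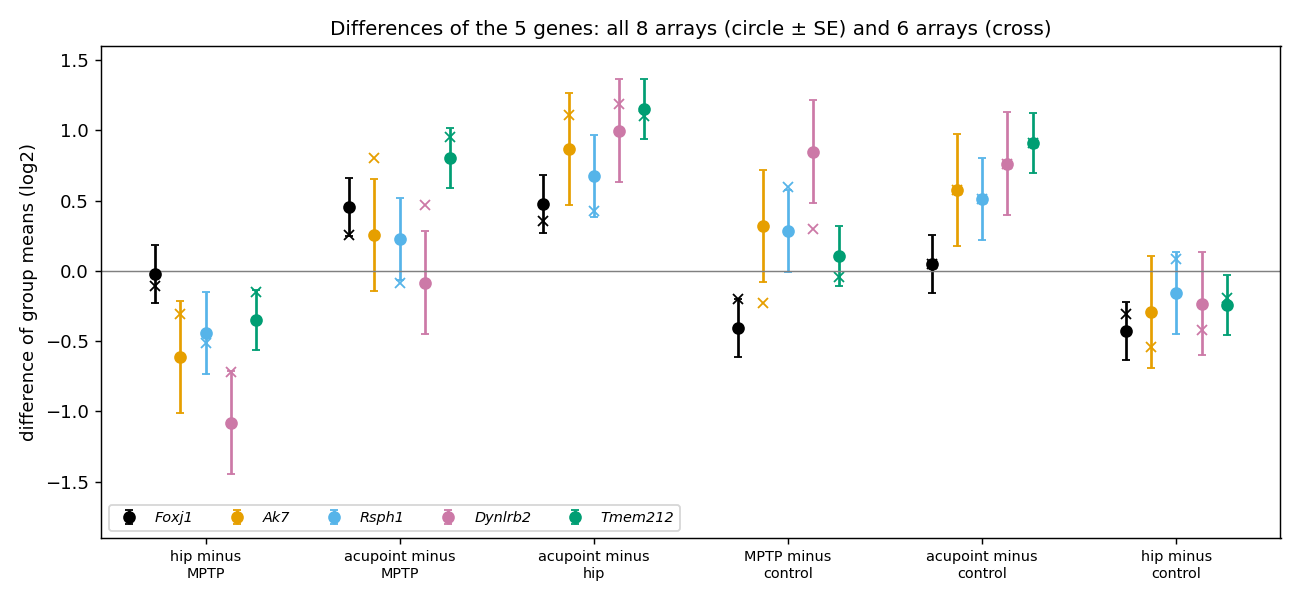
Difference of group means (log2, y axis) of the 5 genes in 6 comparisons (x axis). Circles with bars are limma estimates over 8 arrays ± SE, crosses the values without MPTP mouse 1 and non-acupoint mouse 1. All 5 lie above 0 in acupoint minus non-acupoint mice, and circles and crosses part most in comparisons with MPTP mice.

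Comparisons with saline controls were tested across the whole table. Levels in the injected groups had a part in choosing the 5 genes, so their own p-values against controls only describe these arrays. In MPTP mice against controls no probe set passed the threshold (0 of 15791, 836, or 5.29%, at an unadjusted p under 0.05, limma), and none of the 5 genes did, with adjusted p from 0.714 to 0.828. Dynlrb2 was higher by 0.85 ± 0.37 (SE) and Foxj1 lower, at -0.41 ± 0.21, both with no overlap, as 18.2% of probe sets were higher and 20.4% lower in that way. Ak7 (0.32 ± 0.40), Rsph1 (0.28 ± 0.29) and Tmem212 (0.11 ± 0.21) overlapped. Without MPTP mouse 1 and non-acupoint mouse 1, Dynlrb2 stood at 0.30 and Foxj1 at -0.20, Rsph1 at 0.60, and Ak7 (-0.23) and Tmem212 (-0.04) were on the other side of 0.

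MPTP mice had higher levels than controls for 39 of the 55 other motile cilia genes (median 0.13, with -0.01 for all genes), and 0 passed, with 4 at an unadjusted p under 0.05. The largest differences were in Cfap54 (1.11), Nme5 (0.97), Drc7 (0.95), Efhc2 (0.94) and Cfap206 (0.85). Dnai1, an intermediate chain gene of the outer dynein arm, was at 0.61, the light chain gene Dnal1 at 0.52, Ccdc153 at 0.52, Cfap52 at 0.48, Dnah9 at 0.47 and Ccdc113 at 0.45. Cfap206 and Dnai1, with control means of 5.40 and 5.39, passed the filter only through their MPTP levels. The sizes of their differences are therefore uncertain. Among the regulators Mcidas, which starts multiciliated cell differentiation, was at -0.42 and Trp73 at 0.27, and the median was -0.04. Over the 6 arrays Mcidas was at -0.06 and the regulator median at -0.12. With the 6 arrays the median of the 55 genes was 0.01, with 29 higher and 26 lower, and Ccdc153 was at -0.07. The common direction of the 55 genes therefore rests on MPTP mouse 1, in which Cfap54 stood at 8.64, against 6.55 in MPTP mouse 2 and 6.56 and 6.40 in control mice. Over the 6 arrays Cfap54 was at 0.07, Dnah9 at 0.09, Dnal1 at 0.15, Efhc2 at 0.20, Cfap206 at 0.22, Dnai1 at 0.23 and Nme5 at 0.26. Drc7 (0.86), Cfap52 (0.67) and Ccdc113 (0.45) were not brought near 0 in this way.

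Outside the axoneme, Ecrg4 was 1.39 higher in MPTP mice than in controls and Rarres2 0.53, while S100b (-0.48), Cd24a (-0.47) and Vim (-0.30) were lower, none past the threshold. Intraflagellar transport genes split, with Ift80 (0.81), Wdr35 (0.62) and Wdr19 (0.47) higher and Ift43 (-0.80) lower, and their median was 0.08. These values rest on MPTP mouse 1: with the 6 arrays 17 of 25 were lower, with a median of -0.06, and Ift80 was at -0.05, Wdr19 at -0.03, Wdr35 at 0.00 and Ift43 at -0.10. Tanycyte genes had a median of -0.03, with Nes at -0.72, Crym at -0.43, Dio2 at 0.32 and Lhx2 at 0.24 (-0.08 with the 6 arrays). All 18 choroid plexus genes were higher (median 1.63), and their part in the cilia values was not tested.

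Acupoint mice were higher than controls in all 5 genes, and 4 of them did not overlap, where 30.4% of probe sets were higher with no overlap and 0 passed the threshold (888, or 5.62%, at an unadjusted p under 0.05, limma). The differences were 0.91 ± 0.21 (SE) for Tmem212, 1.88-fold, 0.76 ± 0.37 for Dynlrb2, 0.57 ± 0.40 for Ak7, 0.51 ± 0.29 for Rsph1 and 0.05 ± 0.21 for Foxj1, whose groups overlapped. None passed in the main fit, where the 8 arrays had equal weight, and Tmem212 had the lowest adjusted p (0.352, limma with Benjamini-Hochberg adjustment). The arrays that stood apart are in neither group and enter this value through the shared spread. When only the 4 arrays of these groups were fitted, 1365 probe sets passed, and 1738 did with array weights over all 8 arrays. Tmem212 and Dynlrb2 were among them in both fits. No call is made from these fits for the 5 genes, since their acupoint levels had a part in choosing them. Dynlrb2 also passed the filter through its acupoint and MPTP levels. Of the other cilia genes 34 of 55 were higher (median 0.09), with 0 past the threshold and 4 at an unadjusted p under 0.05. Choroid plexus genes were higher in 18 of 18 (median 1.42) and habenula genes in 8 of 9 (median 0.56), and their part was not tested.

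Non-acupoint mice were lower than controls in all 5 genes. Foxj1 (-0.43 ± 0.21, SE) and Tmem212 (-0.24 ± 0.21) did not overlap, as was so for 22.3% of probe sets that were lower. Ak7 (-0.30 ± 0.40), Dynlrb2 (-0.23 ± 0.37) and Rsph1 (-0.16 ± 0.29) overlapped. No probe set passed (0 of 15791, 770, or 4.88%, at an unadjusted p under 0.05, limma), and the adjusted p of the 5 genes ran from 0.705 to 0.7999. Without the arrays that stood apart Ak7 was at -0.54, Dynlrb2 at -0.42, Foxj1 at -0.31, Tmem212 at -0.19 and Rsph1, on the other side of 0, at 0.0848. Of the other cilia genes 40 of 55 were lower (median -0.09), with 2 at an unadjusted p under 0.05 and 0 past the threshold. That median was -0.21 with the 6 arrays and 0.0475 without non-acupoint mouse 2, so its direction rests on that mouse. All 18 choroid plexus genes were lower as well (median -0.49). The comparisons above share arrays, those of the MPTP mice, the controls and the needled mice each entering more than 1, so they are not independent of each other.

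Of 8 measured relatives from the same gene families, 4 were higher and 4 lower in non-acupoint than in MPTP mice. Dynlrb1, the ubiquitous partner of Dynlrb2, stood at 11.21 and 11.31 in non-acupoint mice, 11.28 and 11.14 in acupoint mice, 11.04 and 11.17 in MPTP mice, and 11.33 and 11.25 in control mice, and differed by 0.16 between non-acupoint and MPTP mice. Foxj2 and Foxj3, forkhead genes expressed in many tissues, differed by -0.19 and -0.09 in that comparison. Of the other adenylate kinase genes, Ak8, which like Ak7 is expressed in ciliated cells, differed by -0.86, with 5.84 and 5.21 in non-acupoint mice, against 6.94 and 5.82 in MPTP mice. Ak8 passed the filter only through its MPTP levels, with 5.19 and 5.45 in control mice, so the size of its difference is uncertain. Ak1 (0.05), Ak3 (-0.02), Ak4 (0.44) and Ak5 (0.06) were nearer to 0 or above it, and with the 6 arrays Ak1 was at -0.02 and Ak3 at 0.17. None of these 8 genes passed the threshold in any of the 6 comparisons.

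The named genes most like the mean profile of the 5 were ranked by the lower of 2 Pearson correlations, over all 8 arrays and over the 6, with 1 probe set per gene and Tmem212, Dynlrb2, Ak7, Foxj1 and Rsph1 left out. The 10 closest were Cdhr4 (lower r = 0.958), a cadherin-related gene, Slc43a3 (0.957), Shpk (0.952), Lrrc51 (0.945), Htr5b (0.937), a serotonin receptor gene, Msx1 (0.929), a homeobox gene, Odf3b (0.911) of the cilia lists, Chrnb4 (0.906), a nicotinic receptor subunit gene of the habenula list, Nwd2 (0.905) and Plxnb2 (0.901). Cdhr4 stood at 5.60 and 5.77 in non-acupoint mice, 6.27 and 6.95 in acupoint mice, 6.13 and 5.96 in MPTP mice, and 6.00 and 5.97 in control mice. The range over the 8 arrays was 1.35 for Cdhr4, 1.67 for Nwd2 and 0.29 for Shpk, against 1.09 for the mean of the 5. The median r of the 55 other motile cilia genes with that mean was 0.38 over 8 arrays and 0.64 over 6, against 0.02 and -0.00 for all genes tested. With this few arrays a high r is reached by many genes, and the values only describe these arrays.

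**Figure D5:**
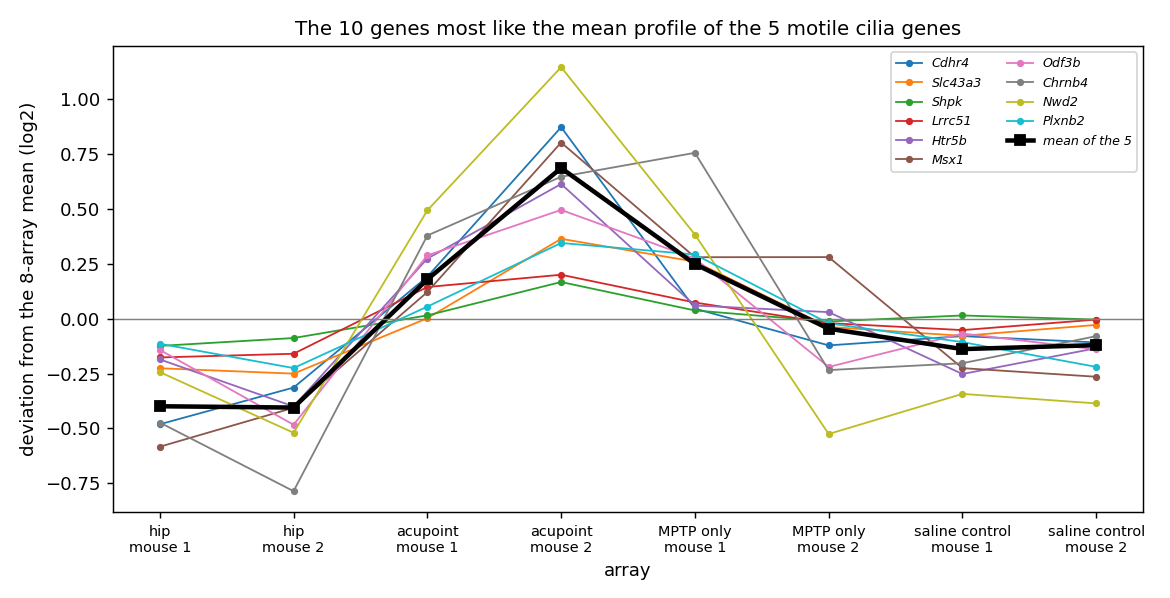
Deviation from the 8-array mean (log2, y axis) on each array (x axis) for the 10 genes closest to the mean profile of the 5 motile cilia genes, which is drawn in black; lines join the arrays of 1 gene. The profiles share a high acupoint mouse 2 and low non-acupoint mice.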

How the data were processed

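The deposited values are log2 levels per probe set, made by the authors with Affymetrix Expression Console and RMA, per the submitters' processing notes; the sources used here give no versions. RMA corrects background, normalizes between arrays and summarises probes, so differences are relative to the other arrays and dim genes are compressed. Per the labels' protocols, 300 ng of total RNA was labelled for each array.

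Of the probe sets, 21789 carried 1 gene symbol in the platform annotation, 1621 carried several and 12147 are unnamed here. Named probe sets above the lowest 40% by mean level were tested, 15791 in all, in a group-means fit over 8 arrays with limma 3.58.1 in R 4.3.3 (residual df 4, prior df 2.53). A gene was represented by its brightest probe set. The fit was tested on simulated data. The named genes were the 5 members, up to 4 genes per cilia, transport, ependymal and tanycyte list with the largest difference in non-acupoint against MPTP and in MPTP against control mice, any gene of those lists past the threshold, the measured paralogs, the 10 genes most alike, and 4 choroid plexus markers. Of 258 list symbols 243 were matched, 11 through an older symbol. The members and lists were chosen with earlier results of these data known. Promoters came from RefSeq (GRCm38.p6), where 3 of the 5 members matched.

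With 2 arrays a group, an exact permutation test cannot go below p = 0.333, so the model over all probe sets carries the tests. The p-values set each difference against the spread between mice within groups, pooled over the 4 groups and moderated over all probe sets tested. Mouse numbers were not used to pair the samples in the main fit. The correlation of mouse 1 minus mouse 2 was 0.82 between the MPTP and non-acupoint groups, whose mouse 1 arrays stood apart. Between the other pairs of groups it ran from -0.28 to 0.19. The alternatives tried were other normalizations, filters and variance settings, a replicate block, array weights, 6 arrays, and each mouse left out.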

Additional observations from a re-analysis of the deposited data

How the results depend on the processing

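The count of probe sets past the threshold moved with the settings. In non-acupoint against MPTP mice 7 passed, against 0 with only the 2 groups fitted, 0 with array weights, 23 with the 6 arrays, and 0 to 5 with a mouse left out. In acupoint against MPTP mice 0 passed, against 3 with the 6 arrays. In acupoint against non-acupoint mice 0 passed, against 2 with no filter, 2 with an intensity trend, 2 with array weights, 19 with the 6 arrays and 0 to 1 with a mouse left out. In MPTP mice against controls 0 passed, against 57 with the 6 arrays. In acupoint mice against controls 0 passed, against 1365 with the 2 groups, 1738 with array weights, 1363 with the 6 arrays and 0 to 1 with a mouse left out. In non-acupoint mice against controls 0 passed, against 1 with no filter, 52 with the 6 arrays and 0 to 1 with a mouse left out. The cause was not tested. The median of the 55 other cilia genes ran from -0.48 to -0.12 with a mouse left out in non-acupoint against MPTP mice, from -0.234 to 0.0716 in acupoint against MPTP mice, from 0.0088 to 0.402 in MPTP mice against controls, and from -0.208 to 0.0475 in non-acupoint mice against controls. Against controls, the sign turned for Tmem212 (-0.0433) and Ak7 (-0.23) in MPTP mice and for Rsph1 (0.0848) in non-acupoint mice with the 6 arrays. With a mouse left out, the same differences ran from -0.0433 to 0.259, from -0.23 to 0.87 and from -0.406 to 0.0848, that of Rsph1 in MPTP mice from -0.0295 to 0.597, and that of Foxj1 in acupoint mice from -0.15 to 0.25. With the replicate block 5 passed in non-acupoint against MPTP mice and 0 in the other comparisons, and it changed no call of a member. Each member has 1 probe set, so no other probe set could be tried. Levels near the filter limit how well differences of Dynlrb2 and Tmem212 are measured.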
